A study of Arabidopsis thaliana with 18 samples.

Results

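The genes described here are the *CBF* transcription factor genes *CBF1*, *CBF2* and *CBF3* and 7 of the genes that cold is known to activate through them, *COR15A*, *COR15B*, *COR47*, *RD29A*, *LTI30*, *KIN1* and *GOLS3*. They were picked by gene identifier as members of the pathway, with earlier results of these data known, and they make 10 of the 37861 nuclear genes in the deposited tables. All 10 had a count in at least 1 library and all 10 were tested. The study sequenced polyA RNA of seed coats and endosperms dissected together from developing *Arabidopsis thaliana* seeds (ecotype Col), in 18 libraries of 6 groups with 3 libraries each. WT plants were grown at 22 °C and sampled at 11 d after pollination (11 DAP), at 11 DAP followed by 6 h or 48 h at 13 °C, or at 13 DAP without cold. The mutant *myb107-2*, a single mutant allele of the transcription factor gene *MYB107*, was sampled at 11 DAP at 22 °C and after 48 h at 13 °C (11 DAP+Cold). WT seeds after 48 h of cold are therefore as old in days as the WT seeds at 13 DAP, which were never in the cold. The paper states that development of the seed is slower in the cold, so these groups may differ in stage. Cold and slower development cannot be told apart between them. Each library pools siliques of 3 to 4 plants. No source says that the 3 libraries of a group came from separate sowings, so the p-values measure the spread between these libraries only.

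The CBF proteins (also named DREB1) are AP2 domain transcription factors that bind a short DNA element, the C-repeat, whose core is CCGAC. In leaves and seedlings they are transcribed soon after the temperature drops, and the cold-regulated (*COR*) genes that carry C-repeats follow. Many of these genes also respond to drought and abscisic acid through another element, with the core ACGTG, and several are active in maturing seeds, which acquire tolerance to drying without any cold.

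The *CBF* genes lie side by side on the minus strand of chromosome 4 (TAIR10.1), within 7.7 kb. *CBF2* (AT4G25470) spans 13015250 to 13016235, *CBF3* (AT4G25480) 13018010 to 13019400 and *CBF1* (AT4G25490) 13021780 to 13022996, and each is a single exon. *COR15A* (AT2G42540, chromosome 2, 17710441 to 17712330) and *COR15B* (AT2G42530, 17708593 to 17710433) are also neighbours on 1 strand, with 2 exons each. *KIN1* (AT5G15960, chromosome 5, 5209717 to 5210826, 3 exons) is followed by its close relative *KIN2*, which is not among the 10 genes. *RD29A* (AT5G52310) is at 21240717 to 21243644 on chromosome 5 with 4 exon blocks, *LTI30* (AT3G50970) at 18940643 to 18941611 on chromosome 3 with 1, *COR47* (AT1G20440) at 7084409 to 7086873 on chromosome 1 with 2, and *GOLS3* (AT1G09350) at 3019639 to 3021443 on chromosome 1 with 4. Of all stretches of 50 nt in their exons, 2.48% in *CBF1*, 3.95% in *CBF2* and 0.596% in *CBF3* also occur in another *CBF* gene, 0.147% in *KIN1* occur in *KIN2*, and none of the other 6 genes shares one with another gene. *CBF3* overlaps AT4G07385 and *COR15B* overlaps AT2G42520 on the other strand. The kit keeps strand, but the sources used here do not say whether the counting used it, so reads of those pairs cannot be told apart.

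To show where C-repeats lie, the 250 bases before the annotated start were read from the RefSeq TAIR10.1 genome for all 10 genes and are printed 5′ to 3′ on the gene's own strand for those with a CCGAC core, in capitals as CCGAC or, on the other strand, GTCGG. *KIN1*, which has no core in this window, is printed beside them since it differs most from the others below.
COR15A (chr2:17712331-17712580, minus strand): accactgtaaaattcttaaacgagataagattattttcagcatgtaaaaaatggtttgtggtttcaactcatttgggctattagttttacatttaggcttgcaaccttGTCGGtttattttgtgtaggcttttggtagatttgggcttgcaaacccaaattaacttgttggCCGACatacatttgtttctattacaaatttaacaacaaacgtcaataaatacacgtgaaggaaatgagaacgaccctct
RD29A (chr5:21240467-21240716, plus strand): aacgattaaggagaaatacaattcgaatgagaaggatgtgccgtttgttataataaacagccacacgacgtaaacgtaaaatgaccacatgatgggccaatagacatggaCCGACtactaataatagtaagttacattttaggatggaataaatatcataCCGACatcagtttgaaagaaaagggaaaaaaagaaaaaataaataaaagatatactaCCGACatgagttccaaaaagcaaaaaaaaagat
LTI30 (chr3:18940393-18940642, plus strand): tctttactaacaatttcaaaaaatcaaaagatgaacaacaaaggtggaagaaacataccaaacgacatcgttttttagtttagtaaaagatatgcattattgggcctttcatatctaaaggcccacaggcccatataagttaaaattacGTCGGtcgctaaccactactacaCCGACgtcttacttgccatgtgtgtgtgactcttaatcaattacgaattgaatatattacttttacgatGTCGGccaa
GOLS3 (chr1:3019389-3019638, plus strand): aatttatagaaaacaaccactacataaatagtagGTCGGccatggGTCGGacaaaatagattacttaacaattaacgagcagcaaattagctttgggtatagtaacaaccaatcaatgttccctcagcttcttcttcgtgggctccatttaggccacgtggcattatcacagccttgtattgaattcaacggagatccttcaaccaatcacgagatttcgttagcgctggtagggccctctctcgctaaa
KIN1 (chr5:5209467-5209716, plus strand): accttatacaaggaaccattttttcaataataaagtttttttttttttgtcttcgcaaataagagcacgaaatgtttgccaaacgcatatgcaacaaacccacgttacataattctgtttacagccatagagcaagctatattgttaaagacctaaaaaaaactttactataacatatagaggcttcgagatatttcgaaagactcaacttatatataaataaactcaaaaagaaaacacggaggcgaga
The core was present 3 times in *RD29A*, 3 times in *LTI30*, 2 times in *COR15A* and 2 times in *GOLS3*, thus in 4 of the 10 genes. In the same window of 27443 protein-coding genes, 12% held at least 1 core on either strand, 1.46% at least 2 and 0.197% at least 3. The ACGTG core was found in 4 of the 10 genes (*CBF2*, *COR15A*, *GOLS3* and *KIN1*) against 22.9% of all genes; in the first 3 it is a palindromic CACGTG that counts on both strands. The evening element AAAATATCT was found in 0 of the 10 against 2.36%. The window of *COR15B* runs into the gene *COR15A*. A match describes these letters only, and a window without one says nothing of the factor.

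Levels are given as counts scaled to a common library size (CPM) with TMM factors, which remove differences in library size but not in gene length, so levels are compared between libraries and not between genes. The deposited estimated counts summed to 43.1 M to 84.0 M a library (median 65.4 M), and 3 counts, taken as the limit of detection, were worth 0.0315 to 0.101 CPM. *MYB107* stood at 27.8 to 62.0 CPM in the 12 WT libraries and at 2.37 to 5.71 CPM in the 6 *myb107-2* libraries. In the first library at 13 DAP, genes of the ribosomal RNA units took 46.99% of the counts against 6.0% to 16.5% elsewhere. In the first library at 6 h of cold, 2.07% of the genes with a median of at least 100 counts were listed at 0, against at most 0.818% elsewhere, so a 0 can be a failed estimate and genes are said to be listed at 0. The seed coat markers *TT10* and *BAN* and the endosperm markers *EPR1* and *ZOU* were present in every library. The seed coat marker *TT12* reached at most 0.581 CPM in any library and was listed at 0 in all at 13 DAP. The endosperm marker *PHE1* reached at most 0.199 CPM. *FIS2*, another endosperm marker, was listed at 0 in all libraries of WT at 6 h of cold and 13 DAP and of *myb107-2* at 11 DAP. Of the 8 embryo markers, which summed to 29.8 to 54.2 CPM, *CUC2* was listed at 0 in all 18 libraries, whereas *CUC1* (12.8 to 30.3 CPM), *SCR* (10.6 to 27.3 CPM) and *SHR* (1.31 to 5.95 CPM) had counts in every library. Tests were edgeR's quasi-likelihood test with all 12 WT libraries in 1 fit, and a gene was called where the adjusted p did not exceed 0.05 and the log2 fold change reached 1 in either direction.

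After 6 h of cold, 5 of the 10 genes were called higher than at 11 DAP in WT. These were *CBF3* and its known targets *COR15A*, *COR15B*, *RD29A* and *LTI30*. No group was sampled after the same 6 h without cold, so cold was not tested apart from the time that passed. Of all 26245 genes tested, 0.492% were called higher in that comparison. None of the 10 fell (0.876% of all genes did). In 8 of the 10 genes the lowest library at 6 h stood above the highest at 11 DAP, which held for 9.51% of all genes, and in none below the lowest control (12.1% of all genes). Without the first library at 6 h, which holds the most genes listed at 0, the called genes again numbered 5. Over all 10 genes and all libraries the median change was 3.40 on the log2 scale, also with lower bounds in place of the fitted values of genes listed at 0 at 11 DAP, and that of all genes was -0.01.

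*CBF3* was the only *CBF* gene called at 6 h. Its level was 0.370, 0.347 and 0.376 CPM at 11 DAP and 2.72, 2.80 and 5.68 CPM at 6 h, a log2 fold change of 3.35 ± 0.64 (SE, n = 3 against 3, edgeR adjusted p = 0.015). The groups did not overlap, but the counts were low, 26 to 32 against 139 to 417, and the call was lost (adjusted p from 0.053 to 0.072) without any 1 of the 3 libraries at 11 DAP or without the third library at 6 h. *CBF1* stood at 9.23, 6.40 and 6.82 CPM at 11 DAP and at 17.0, 11.5 and 15.2 CPM at 6 h, all 3 above the control but not called (log2 fold change 0.94 ± 0.32, adjusted p = 0.15). *CBF2* overlapped between the groups, with 9.62, 8.24 and 10.13 CPM against 11.2, 8.63 and 9.14 CPM (0.03 ± 0.31, adjusted p = 1).

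**Figure D1:**
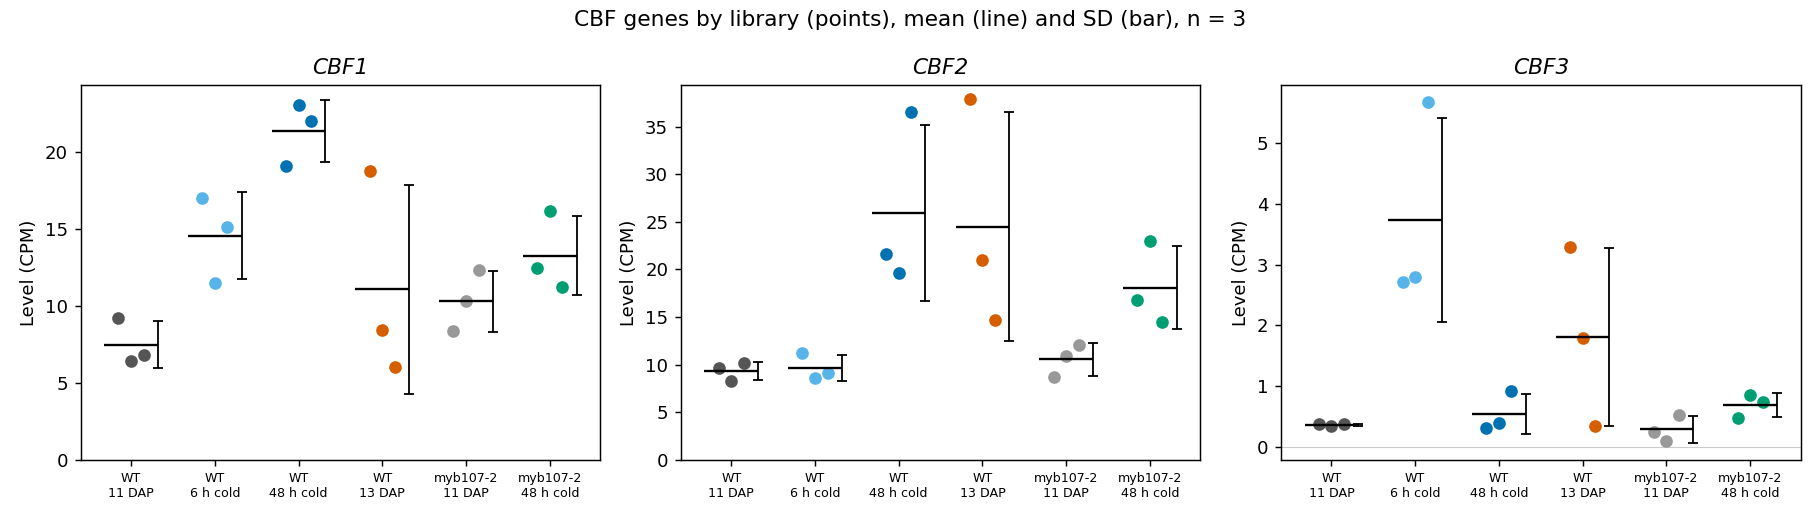
Level of each *CBF* gene in CPM (vertical axis, linear) in the 18 libraries, 3 in each of 6 groups (horizontal axis). Points are libraries, lines are means and bars are SD. *CBF3* is highest at 6 h of cold (2.72 to 5.68 CPM), while *CBF1* is highest after 48 h of cold in WT (19.1 to 23.1 CPM) and *CBF2* is high both after 48 h of cold and at 13 DAP.

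*RD29A*, which encodes a hydrophilic protein and is a standard reporter of cold and drought responses, gave the smallest p of the 10 genes. It rose from 3.40, 2.89 and 2.57 CPM to 34.7, 26.0 and 37.5 CPM, a log2 fold change of 3.45 ± 0.24 (adjusted p = 7.5e-06). *LTI30*, a dehydrin, rose from 3.29, 2.44 and 2.27 CPM to 14.8, 13.2 and 16.9 CPM (2.47 ± 0.19, adjusted p = 1.4e-05). Neither gene overlapped between the groups.

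The *COR15* genes, which encode chloroplast proteins that protect membranes during freezing, were near or at 0 before the cold. *COR15A* had 0.116 CPM in the first library at 11 DAP, was listed at 0 in the other 2, and reached 3.66, 1.21 and 2.30 CPM at 6 h (log2 fold change 5.71 ± 0.92, adjusted p = 0.004). Without that first library the control is all at 0 and the rise is at least 59.5-fold, counted against 3 counts a library, and with edgeR's legacy method *COR15A* was not called (adjusted p = 0.14). *COR15B* was listed at 0 in all 3 libraries at 11 DAP and reached 3.66, 1.80 and 4.40 CPM, at least 85.7-fold higher (adjusted p = 0.0024). Their counts at 6 h were 84 to 187 and 125 to 323.

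The remaining 3 genes were not called at 6 h. *COR47*, an abundant dehydrin gene, stood at 90.7, 145 and 194 CPM at 11 DAP and at 249, 222 and 206 CPM at 6 h (0.65 ± 0.26, adjusted p = 0.22). *KIN1*, which encodes a small hydrophilic protein, was listed at 0 in the 3 controls and had 1.12, 0.446 and 0.449 CPM at 6 h (adjusted p = 0.17). *GOLS3*, a galactinol synthase that starts the raffinose pathway, was listed at 0 in the controls and had 1.39, 0.273 and 0 CPM (adjusted p = 0.17). DESeq2 called *KIN1* higher (adjusted p = 1.4e-05) and made it 6 of the 10 genes.

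After 48 h of cold the set of called genes was another one. In WT, *CBF1*, *CBF2*, *LTI30* and *KIN1* were higher than at 11 DAP and none was lower, 4 of the 10 genes beside 2.8% of all genes higher and 3.2% lower. In 5 of the 10 genes all libraries after 48 h stood above all at 11 DAP (14.9% of all genes), and in none below (15.9%).

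*CBF1* reached 19.1, 23.1 and 22.0 CPM after 48 h (1.496 ± 0.32, adjusted p = 0.0095) and *CBF2* 21.6, 19.6 and 36.5 CPM (1.45 ± 0.31, adjusted p = 0.0084). Both stood above every control library. *CBF3* had 0.311, 0.387 and 0.915 CPM, 1 library below and 2 above the narrow range of the controls (0.40 ± 0.84, adjusted p = 0.86).

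*LTI30* had 9.73, 10.5 and 10.2 CPM after 48 h (1.90 ± 0.19, adjusted p = 6.4e-05), still above all controls. *KIN1* had 0.297, 1.36 and 6.45 CPM against 3 controls listed at 0, at least 70.5-fold higher (adjusted p = 0.01), or at least 21.6-fold without the third library. *COR15B* had 0.338, 0.164 and 0.686 CPM (adjusted p = 0.055), and was called with DESeq2, edgeR's legacy method and the fit with a replicate block (adjusted p = 6.5e-06, 0.0072 and 0.039).

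*COR15A* was listed at 0 in all 3 libraries after 48 h, and *GOLS3* had 0.351, 0 and 0 CPM. *RD29A* had 4.33, 5.31 and 2.79 CPM (0.50 ± 0.24, adjusted p = 0.24), overlapping the controls. *COR47* had 73.8, 80.7 and 111 CPM (-0.71 ± 0.26, adjusted p = 0.10).

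The step from 6 h to 48 h was compared within the same fit. Of the 10 genes, 5 fell (1.38% of all genes) and 1 rose (2.58%), while the libraries were wholly lower at 48 h in 6 (9.59% of all genes) and wholly higher in 2 (11.4%). *RD29A* fell by 2.96 ± 0.24 on the log2 scale (adjusted p = 7.3e-05), *CBF3* fell by 2.95 ± 0.64 (adjusted p = 0.013), *COR15B* fell by 3.23 ± 0.59 (adjusted p = 0.0074) and *COR47* fell by 1.36 ± 0.26 (adjusted p = 0.0065). *COR15A* was at least 49.7-fold lower at 48 h (adjusted p = 0.0011). *CBF2* rose by 1.42 ± 0.31 (adjusted p = 0.014). *CBF3* was not called without the third library at 6 h or the first or the second at 48 h (adjusted p from 0.06 to 0.063), and *CBF2* was not called without the second or the third library at 6 h or the third at 48 h (adjusted p from 0.052 to 0.062), while *COR15B* was not called with the legacy method (adjusted p = 0.11). *KIN1* overlapped between the times (1.93 ± 0.84, adjusted p = 0.25) and was called without the first library at 48 h (2.50, adjusted p = 0.043), whereas without the third at 48 h the value was 0.41 (adjusted p = 0.84).

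**Figure D2:**
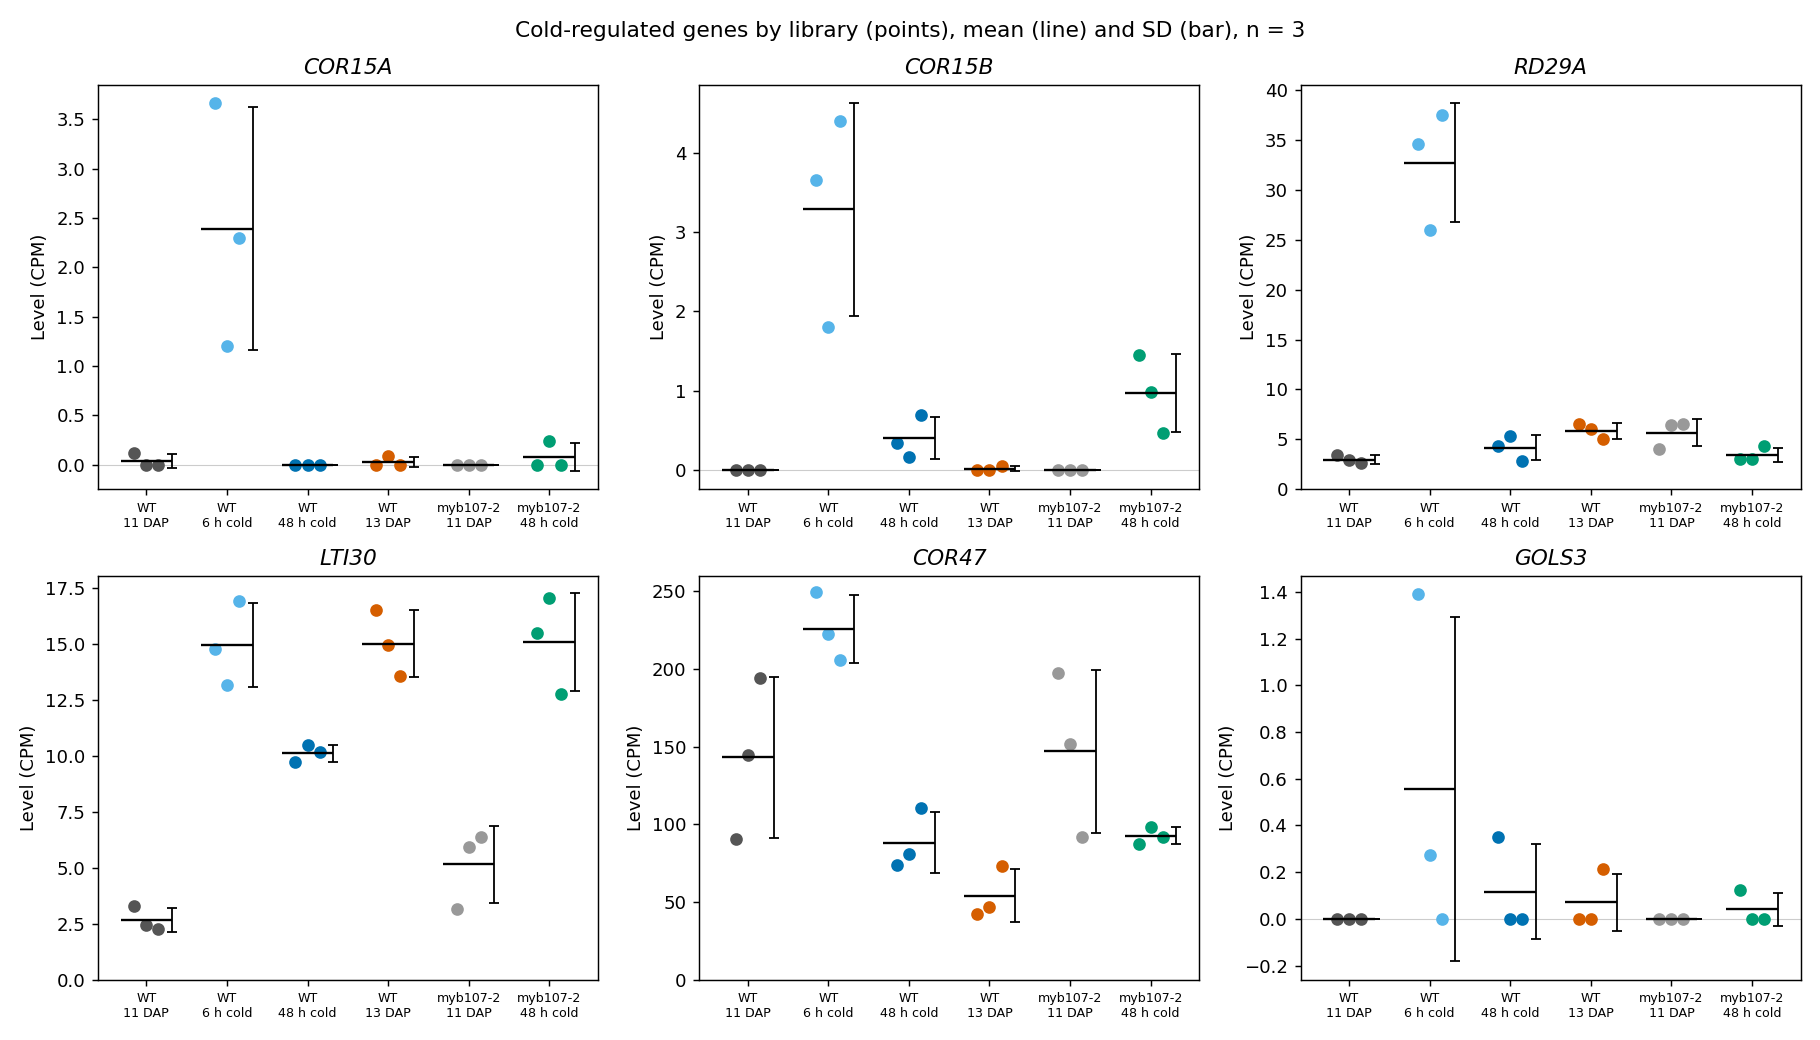
Level in CPM (vertical axis, linear, one scale per gene) of 6 cold-regulated genes in the 18 libraries of 6 groups (horizontal axis). Points are libraries, lines are means and bars are SD. *COR15A*, *COR15B* and *RD29A* are high at 6 h of cold, *LTI30* is at 9.73 CPM or more in all libraries that were in the cold or at 13 DAP, and *COR47* is highest at 6 h and lowest at 13 DAP.

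Growth to 13 DAP without cold also changed 4 of the 10 genes. At 13 DAP, *CBF2*, *LTI30* and *KIN1* were higher than at 11 DAP (3 of 10 beside 5.22% of all genes) and *COR47* was lower (1 of 10 beside 5.52%). All libraries at 13 DAP stood above those at 11 DAP in 4 genes (17.3% of all genes) and below in 1 (17.1%). Without the first library at 13 DAP, the one rich in ribosomal RNA, 2 were called higher. The controls at 11 DAP are the same 3 libraries as for the cold, so the changes with cold and with age are given side by side and were not correlated.

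*KIN1* changed most. It was listed at 0 in the 3 libraries at 11 DAP and reached 672, 443 and 394 CPM at 13 DAP, at least 13111-fold higher (adjusted p = 5.7e-06), with 20020 to 25956 counts a library. *KIN2* rose too, from 0.741, 0 and 0.887 CPM to 1108, 939 and 816 CPM (10.72 ± 1.07, adjusted p = 9.8e-06). With only 0.147% of the 50 nt stretches of *KIN1* shared, the counts of each are nearly free of the other.

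*LTI30* reached 16.5, 15.0 and 13.6 CPM at 13 DAP (2.44 ± 0.19, adjusted p = 1.9e-06), above all 3 control libraries. *CBF2* reached 37.9, 21.0 and 14.7 CPM (1.34 ± 0.31, adjusted p = 0.0073), with the highest value in the library rich in ribosomal RNA. Without that library the log2 fold change of *CBF2* was 0.91 (adjusted p = 0.033), under the minimum of 1. *CBF1* had 18.8, 8.42 and 6.04 CPM and *CBF3* 3.29, 1.80 and 0.349 CPM, the highest again in that library, and neither was called (adjusted p = 0.40 and 0.067). For *CBF3* the log2 fold change was 2.09 ± 0.73, and it was called with DESeq2, with all 18 libraries in the fit, with a minimum of 10 counts in every library, and without the third library at 13 DAP (adjusted p from 0.0082 to 0.039). Without the library rich in ribosomal RNA it was 1.46 (adjusted p = 0.3), and with the replicate block the adjusted p was 0.11.

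*COR47* fell to 42.4, 46.6 and 73.5 CPM at 13 DAP, below all 3 libraries at 11 DAP (-1.43 ± 0.26, adjusted p = 0.0015). *RD29A* had 6.54, 5.98 and 4.98 CPM, all above 11 DAP (0.93 ± 0.25, adjusted p = 0.018), and missed the minimum fold change. It was called without the first library at 11 DAP (1.05) or without the third at 13 DAP (1.03), and was 0.83 (adjusted p = 0.071) without the third at 11 DAP. *COR15A* was listed at 0 in 2 of the 3 libraries, *COR15B* in 2 and *GOLS3* in 2.

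**Figure D3:**
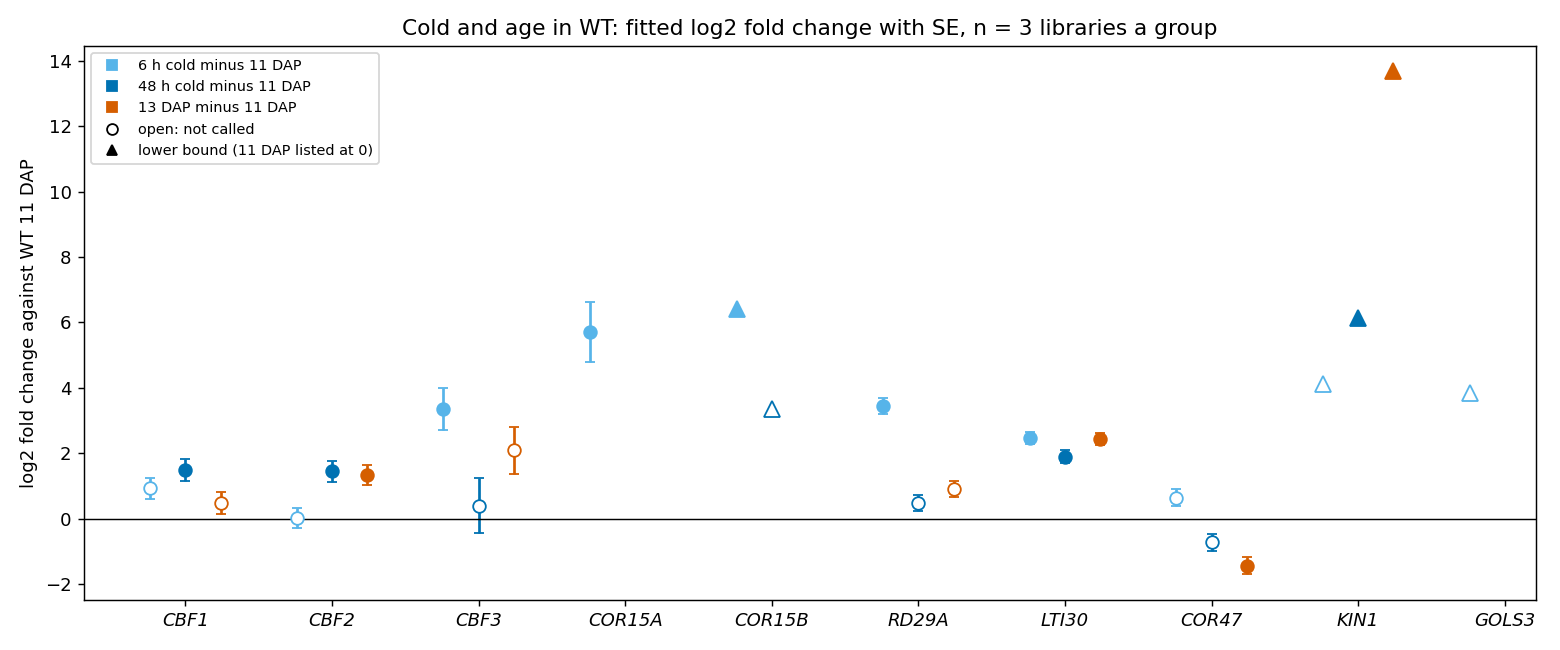
Fitted log2 fold change against WT at 11 DAP (vertical axis) of the 10 genes (horizontal axis) for 6 h of cold, 48 h of cold and 13 DAP, with SE bars and 3 libraries in each group. Filled symbols were called and triangles are lower bounds where the control is listed at 0. No symbol is drawn where neither group had 2 libraries over 3 counts. The 6 h values of *CBF3*, *COR15A*, *COR15B* and *RD29A* lie above 3. Also above 3 are the 6 h bounds of *KIN1* (at least 17.5-fold) and *GOLS3* (at least 14.5-fold), neither of them called. *LTI30* was called higher in all 3 comparisons (1.90 to 2.47).

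The direct comparison of seeds of the same age, 48 h of cold against 13 DAP, called 1 of the 10 genes, against 3.83% of all genes higher in the cold and 4.09% lower. The libraries were wholly higher after cold in 3 of the 10 (13.1% of all genes) and wholly lower in 2 (15.1%). *KIN1* was lower after cold, 0.297 to 6.45 CPM against 394 to 672 CPM (-7.67 ± 0.77, adjusted p = 7.9e-05; -9.19 without the third library in the cold). *KIN2* was lower as well, at 3.84, 10.06 and 58.0 CPM after cold (-5.32 ± 0.81, adjusted p = 0.00067). *CBF1* stood at 19.1 to 23.1 CPM after cold and at 6.04 to 18.8 CPM at 13 DAP, so that its groups did not overlap (1.01 ± 0.32, adjusted p = 0.056). Without the library rich in ribosomal RNA it was called (1.57, adjusted p = 0.00096), as it was with the ribosomal RNA genes removed (1.05, adjusted p = 0.039), with all 18 libraries (1.00, adjusted p = 0.025) and with a replicate block (1.11, adjusted p = 0.031). Without the third library at 13 DAP it was 0.70 (adjusted p = 0.21). *LTI30* was at 9.73 to 10.5 CPM after cold and at 13.6 to 16.5 CPM at 13 DAP, without overlap and not called (-0.54 ± 0.18, adjusted p = 0.062). *COR47* was at 73.8 to 111 CPM against 42.4 to 73.5 CPM (0.72 ± 0.26, adjusted p = 0.089), and ranged with 1 library left out from 0.52 to 1.01, the latter without the third library at 13 DAP and called (adjusted p = 0.033). *CBF3* overlapped, at 0.311 to 0.915 CPM after cold and 0.349 to 3.29 CPM at 13 DAP (-1.69 ± 0.72, adjusted p = 0.16), with -2.29 (adjusted p = 0.03) without the third library at 13 DAP and -1.09 (adjusted p = 0.45) without the first. *COR15B*, at 0.164 to 0.686 CPM against 0 to 0.0455 CPM (4.04 ± 1.62, adjusted p = 0.14), passed in DESeq2 (adjusted p = 0.0019) and under the legacy method (adjusted p = 0.032). Its only counts at 13 DAP are in the third library, without which that group is all at 0, and leaving out any other library gave 3.41 to 4.46, none called.

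**Figure D4:**
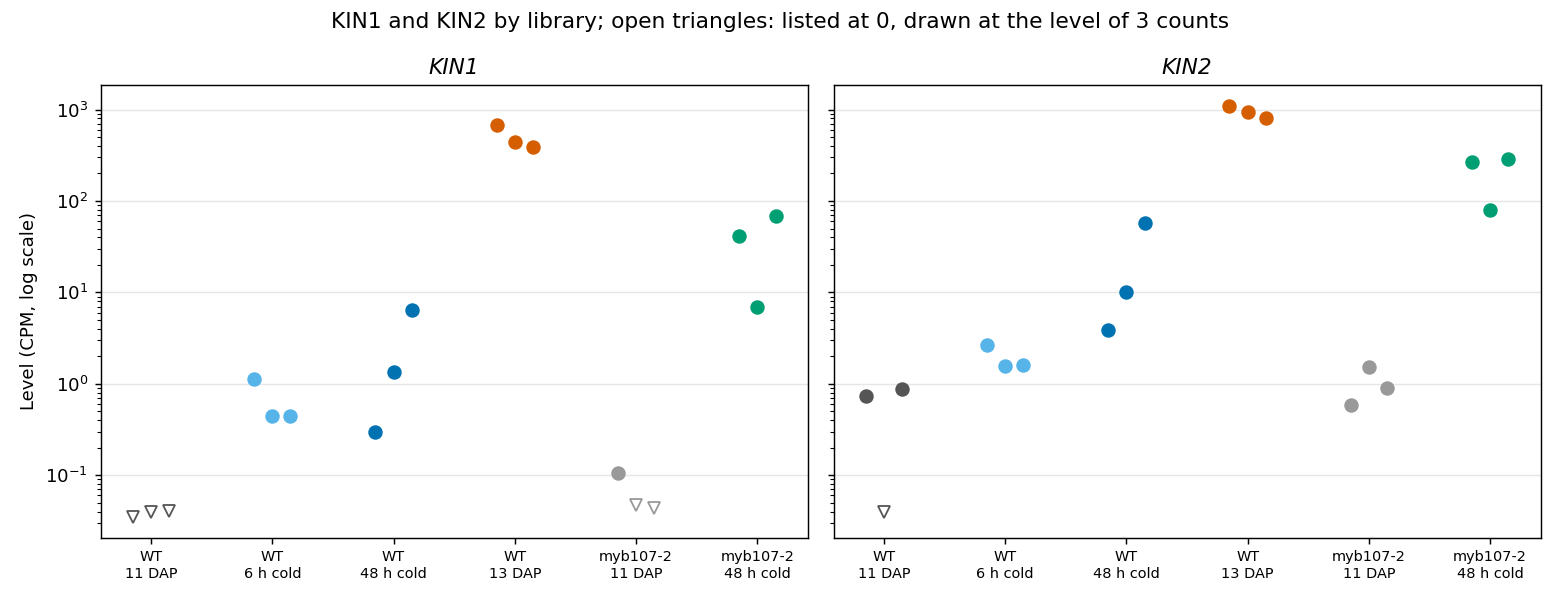
Level of *KIN1* and *KIN2* in CPM (vertical axis, log scale) in the 18 libraries of 6 groups (horizontal axis). Filled points are libraries and open triangles are libraries listed at 0, drawn at the level of 3 counts. Both genes stand highest at 13 DAP (*KIN1* 394 to 672 CPM), and both stand higher in *myb107-2* than in WT after 48 h of cold.

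After 48 h of cold, 3 of the 10 genes were higher in *myb107-2* than at 11 DAP, beside 4.14% of all genes. None was lower (3.83% of all genes), with 26068 genes tested in the fit of both genotypes. The mutant was not sampled at 13 DAP, so cold and age cannot be told apart in its changes. In 4 of the 10 the libraries were wholly higher after cold (16.7% of all genes) and in none wholly lower (16.2%). *LTI30* rose from 3.17, 5.94 and 6.37 CPM to 15.5, 17.1 and 12.8 CPM (1.57 ± 0.23, adjusted p = 0.00013). *COR15B* was listed at 0 in the 3 libraries at 11 DAP and reached 1.45, 0.987 and 0.465 CPM, at least 23.5-fold higher (adjusted p = 0.0066). *KIN1* rose from 0.105, 0 and 0 CPM to 40.9, 6.94 and 68.1 CPM (9.71 ± 1.25, adjusted p = 4.2e-05). Without the first library at 11 DAP the control of *KIN1* is all at 0 and the rise is at least 843-fold, and without the third library in the cold the log2 fold change was 9.01. *CBF2* had 8.71, 10.9 and 12.04 CPM before and 16.8, 23.0 and 14.5 CPM after cold, with an adjusted p of 0.027 but a log2 fold change of 0.78 ± 0.23. *CBF1* overlapped, with 8.35, 10.3 and 12.3 CPM before and 12.5, 16.2 and 11.2 CPM after cold (0.36 ± 0.19, adjusted p = 0.23).

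Between the genotypes at 11 DAP, 0 of the 10 genes were called in edgeR (0.18% of all genes were higher and 0.717% lower in the mutant), and DESeq2 called 0 as well. At an unadjusted p under 0.05 stood *CBF1* (0.43 ± 0.20, adjusted p = 0.37), *RD29A* (0.89 ± 0.27, adjusted p = 0.13) and *LTI30* (0.89 ± 0.26, adjusted p = 0.13). *RD29A*, at 4.06, 6.43 and 6.49 CPM in *myb107-2*, was the only one of the 10 whose libraries were wholly higher in the mutant (8% of all genes), and none was wholly lower (9.22%). *LTI30* was called without the first mutant library (1.18, adjusted p = 0.016) and was 0.70 (adjusted p = 0.49) without the third.

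After 48 h of cold, *KIN1* was the only one of the 10 genes called between the genotypes, beside 0.706% of all genes higher and 1.14% lower. It stood at 6.94 to 68.1 CPM in *myb107-2* against 0.297 to 6.45 CPM in WT (4.10 ± 0.72, adjusted p = 0.003), and the groups came close without overlapping. The libraries of 2 genes, *KIN1* and *LTI30*, were wholly higher in the mutant (8.78% of all genes) and those of 1 wholly lower (7.62%). The log2 fold change was 3.50 without the first WT library, 5.46 without the third, and 3.39 without the third mutant library, and the call was lost with DESeq2 (adjusted p = 0.24) and with the legacy method (adjusted p = 0.058). *KIN2* was higher as well, at 265, 79.7 and 286 CPM against 3.84, 10.06 and 58.0 CPM (3.20 ± 0.68, adjusted p = 0.015). *CBF1* was the lower one, at 11.2 to 16.2 CPM in the mutant and 19.1 to 23.1 CPM in WT, and was not called (-0.70 ± 0.19, adjusted p = 0.054).

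Whether the change with 48 h of cold differed between the genotypes was tested as an interaction, without a minimum fold change, which called 0.203% of all genes as higher and 0.0767% as lower, and 0 of the 10. Only *CBF1* (-1.13 ± 0.27, adjusted p = 0.12) and *RD29A* (-1.23 ± 0.39, adjusted p = 0.33) were under an unadjusted p of 0.05, and DESeq2 called *CBF1* (-1.14, adjusted p = 0.021). For *COR15A*, *COR15B*, *KIN1* and *GOLS3* no difference of changes is given, since 1 or both groups at 11 DAP were at or near 0.

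The order of the 6 groups by mean level differed from gene to gene. *COR15A*, *COR15B*, *RD29A* and *COR47* were highest at 6 h of cold, where each of their libraries stood above all libraries of the next group. *CBF3* and *GOLS3* were also highest at 6 h but overlapped the next group. *CBF1* was highest after 48 h of cold in WT with no overlap, and *CBF2* in that group with overlap with 13 DAP. *LTI30* was close in *myb107-2* after 48 h of cold, in WT at 13 DAP and at 6 h (means of 15.1, 15.0 and 15.0 CPM), which overlapped, then lower after 48 h of cold in WT and lowest at 11 DAP in both genotypes. *KIN1* was ordered 13 DAP, then *myb107-2* after cold, then WT after 48 h and 6 h of cold, with overlap only between the last 2 and between the 2 groups at 11 DAP.

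The genes most like each member over the 18 libraries were found by Pearson correlation of log2(CPM + 0.5), as a description over libraries that share groups. *LTI30* was most like *COR27* (r = 0.954), AT4G33980, which is *COR28* (0.941), and AT1G56300 (0.923). *COR27* and *COR28* are a pair of related cold-regulated genes that act on the clock and on cold tolerance. *RD29A* was most like *MIF2* (0.93), *PTAC17* (0.92) and AT5G52330 (0.919). *CBF3* was most like *TRX-M4* (0.885) and AT2G16365 (0.869), followed by the same AT5G52330 (0.852). *KIN1* was most like AT3G04150 (0.985), AT3G60730 (0.982) and AT3G04170 (0.98), *COR47* like *WRI1* (0.911), the regulator of fatty acid synthesis in seeds, *CBF2* like AT5G38700 (0.937) and *CBF1* like AT3G49800 (0.911). *COR15A*, *COR15B* and *GOLS3* had means under 1 CPM and were not compared.

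Of 19 other cold-regulated genes, 4 were higher and 0 lower after 6 h of cold, beside 0.492% and 0.876% of all genes. *COR27* rose from 4.75 to 6.58 CPM at 11 DAP to 35.3 to 41.8 CPM (2.70 ± 0.16, adjusted p = 1.8e-06) and *COR28* from 0.954 to 1.51 CPM to 19.0 to 25.6 CPM (4.30 ± 0.26, adjusted p = 2.3e-06). *BAM3*, a chloroplast beta-amylase, rose to 216 to 349 CPM (2.46 ± 0.30, adjusted p = 0.0011), and *RCI2A*, which encodes a small membrane protein, also rose (1.86 ± 0.22, adjusted p = 0.0011). After 48 h of cold 7 of the 19 were higher and 0 lower (2.8% and 3.2% of all genes), among them *COR28* (3.55 ± 0.26), *COR27* (1.91 ± 0.15), *RD29B* (1.16 ± 0.19) and *KIN2* (5.40 ± 0.93). At 13 DAP 5 were higher, among them *COR27* (2.12 ± 0.16) and *COR28* (3.47 ± 0.26), and 3 were lower (5.22% and 5.52% of all genes). In 48 h of cold against 13 DAP, *AZF2*, *BAM3*, *RCI2A* and *RCI2B* were higher and *KIN2* was lower (3.83% and 4.09% of all genes). The median log2 fold change of the 19 in that comparison was 0.85, against 0 over all genes. The median log2 fold change of the 19 was 0.41 at 6 h, 0.73 at 48 h and -0.21 at 13 DAP, against -0.01, -0.001 and 0 over all genes.

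Of 17 upstream regulators of the *CBF* genes, among them *ICE1*, which activates *CBF* genes in the cold, 0 were called at 6 h, 3 after 48 h of cold and 3 at 13 DAP, to be read against the same shares of all genes. After 48 h of cold *MYB15* (2.46 ± 0.59, adjusted p = 0.016), a MYB factor that binds *CBF* promoters, and *SOC1* (1.25 ± 0.28, adjusted p = 0.011) were higher and *PIF4* was lower (-1.92 ± 0.56, adjusted p = 0.043). At 13 DAP *MYB15* was higher, at 6.75 to 18.8 CPM against 0.840 to 1.10 CPM at 11 DAP (3.50 ± 0.58, adjusted p = 0.00069), as was *PUB25*, and *ICE2* was lower. *ICE1* was called higher after 48 h of cold than at 13 DAP (3.83% of all genes) and *OST1* was called lower (4.09%). *ICE1* stood at 195 to 228 CPM after 48 h of cold in WT and at 96.2 to 117 CPM at 13 DAP. The libraries of *OST1* overlapped between these groups, with 9.66 to 104 CPM at 13 DAP. Among the 3 relatives *CBF4*, *DDF1* and *DDF2*, 0 were called at 6 h and *CBF4* was higher after 48 h (1.44 ± 0.40, adjusted p = 0.036), beside 2.8% of all genes. *DDF1* was lower at 13 DAP (-1.74 ± 0.46, adjusted p = 0.018), higher at 48 h than at 6 h (1.48 ± 0.40, adjusted p = 0.042) and higher after 48 h of cold than at 13 DAP (2.38 ± 0.46, adjusted p = 0.0032). In the same order, 5.52%, 2.58% and 3.83% of all genes were called in those directions.

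Other genes of the same protein families behaved differently from gene to gene. Of 8 dehydrin genes outside the 10, 0 were called at 6 h (0.492% of all genes higher, 0.876% lower). *HIRD11* and AT2G21490 were higher after 48 h of cold (2.8%) and 0 were lower (3.2%). At 13 DAP *RAB18* and AT2G21490 were higher (5.22%) and AT4G38410 was lower (5.52%). In 48 h of cold against 13 DAP *XERO1*, *HIRD11* and AT4G38410 were higher (3.83%), *HIRD11* at 294 to 426 CPM against 103 to 135 CPM. *RAB18* and AT2G21490 were lower there (4.09%). AT2G21490 stood at 14.3 to 22.7 CPM at 11 DAP, at 62.8 to 114 CPM after 48 h of cold and at 348 to 511 CPM at 13 DAP. Of 9 galactinol and raffinose genes, 5 had a count, and *GOLS5* was lower at 6 h (-2.41 ± 0.45, adjusted p = 0.012), after 48 h (-3.34 ± 0.47, adjusted p = 0.00061) and at 13 DAP (-1.96 ± 0.44, adjusted p = 0.0064). In the same order, 0.876%, 3.2% and 5.52% of all genes were lower. At 13 DAP *GOLS2* was lower too (-2.15 ± 0.37, adjusted p = 0.001), whereas *STS*, a stachyose synthase gene, was higher, at 28.1 to 33.6 CPM against 8.73 to 13.0 CPM (1.54 ± 0.23, adjusted p = 0.00028), beside 5.22% of all genes. *STS* was lower after 48 h of cold, at 4.21 to 6.35 CPM, than at 13 DAP (4.09% of all genes).

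Clock genes moved in the same comparisons. Of 9, *PRR5*, *GI*, *ELF4* and *LUX* were higher at 6 h (0.492% of all genes). *PRR5*, *PRR9* and *ELF4* were higher after 48 h of cold (2.8%). At 13 DAP *PRR5*, *ELF4* and *LUX* were higher (5.22%) and *CCA1* and *LHY* lower (5.52%). *CCA1*, *LHY* and *PRR9* were higher after 48 h of cold than at 13 DAP (3.83%), with *CCA1* at 41.1 to 63.0 CPM against 4.43 to 7.85 CPM. *PRR5* stood at 1.24 to 1.92 CPM at 11 DAP, 10.2 to 25.8 CPM at 6 h, 6.66 to 8.33 CPM after 48 h and 10.14 to 13.0 CPM at 13 DAP. In *myb107-2* at 11 DAP, *CCA1* (6.42 to 16.1 CPM) and *LHY* were lower than in WT (*CCA1* 20.0 to 43.3 CPM), beside 0.717% of all genes. After 48 h of cold in the mutant, *CCA1*, *LHY*, *PRR5*, *PRR9* and *ELF4* were higher than at 11 DAP (4.14% of all genes). Between the genotypes after cold and in the interaction, 0 of the 9 were called. The labels do not give the hour of collection. The part of the time of day in the changes of the 10 genes, with cold or between the genotypes, was not tested.

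Of the 6 seed coat markers, 0 were called in WT at 6 h or after 48 h of cold. At 13 DAP *TT10*, *BAN*, *PRX36* and *MUM2* were lower than at 11 DAP (5.52% of all genes). *BAN*, *PRX36* and *MUM2* were higher after 48 h of cold than at 13 DAP (3.83% of all genes) and 0 were lower (4.09%). Together the 6, mostly *TT10*, summed to 2346 to 2394 CPM at 11 DAP in WT, 1173 to 1707 at 6 h, 846 to 1680 after 48 h of cold and 722 to 1306 at 13 DAP. The 5 endosperm markers, nearly all of it *EPR1*, summed to 13318 to 18198, 6287 to 13664, 13885 to 21976 and 26541 to 30583 CPM in the same order. Other endosperm markers did not follow that sum. *ALE1* was lower after 48 h of cold (-2.19 ± 0.34, adjusted p = 0.00098) and at 13 DAP (-4.39 ± 0.43, adjusted p = 8.1e-06), and *ALE1* and *ZOU* were higher after 48 h of cold than at 13 DAP (2.20 ± 0.48 and 1.01 ± 0.17). *ZOU* stood at 14.9 to 19.8 CPM at 11 DAP and at 10.9 to 11.9 CPM at 13 DAP. In these dissected tissues, fewer cells of a type and less RNA per cell cannot be told apart, and the part of tissue shares in the changes of the 10 genes was not tested.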

How the data were processed

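PolyA RNA of dissected seed coats and endosperms was sequenced with a stranded kit in 18 libraries. The deposited tables hold estimated counts per gene, as whole numbers without normalization, which the authors made from trimmed reads. HISAT2, StringTie and DESeq2 are the tools named in the submitters' processing notes. The genome build, annotation and versions are not given in the sources used here, and all nuclear identifiers occur in TAIR10.1. The labels give 13 °C for the cold, and the text of the paper gives a lower temperature. Dates stood where counts belong for 22 nuclear genes (in 5 files), which were left out. Rows without a nuclear gene (median 0.851% of the counts) stayed out of library sizes and tests.

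After TMM scaling the counts were tested by the quasi-likelihood test of edgeR 4.0.16 (limma 3.58.1, R 4.3.3), with Benjamini-Hochberg adjustment over all genes with a count, in a fit of the 12 WT libraries and a fit of the 12 libraries of both genotypes at 11 DAP and 11 DAP+Cold. A standard error (SE) was obtained as the absolute log2 fold change over the root of the F statistic. A fold against a group listed at 0 is a lower bound against 3 counts in each library. The WT fit was tested on simulated data for the 6 h comparison only, where false calls made up more than the nominal share of the calls, and the fit of both genotypes was not simulated. The alternatives were DESeq2 1.42.0, RLE scaling, filterByExpr, at least 10 counts in every library, the legacy method, all 18 libraries, a replicate block, no ribosomal RNA genes, no minimum fold change and leaving out each library.

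All 10 genes are named; from the lists, genes called and up to 4 with values by smallest p; and for each gene with a mean of at least 1 CPM the 3 with the highest correlation. *KIN2*, *CCA1*, *CUC2* and the other markers named with levels stand beside a result or check a label. The genes and lists were chosen with earlier results of these data known. Correlations of the deviations of same-numbered libraries were all over 0.1 only between 11 DAP and 13 DAP in WT (0.266, 0.101 and 0.178). Between 11 DAP and 48 h of cold in WT they were 0.085, 0.201 and 0.141, the first under that limit.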

Additional observations from a re-analysis of the deposited data

Results flagged for a closer look

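In WT, the changes from 11 DAP after 6 h and after 48 h of cold differed for 6 of the 10 genes by the edgeR test of 48 h minus 6 h, which uses the same 3 control libraries for both. *CBF2* was higher at 48 h (1.42 on the log2 scale), and *CBF3* (-2.95), *COR15B* (-3.23), *COR47* (-1.36) and *RD29A* (-2.96) were lower, as was *COR15A* by at least 49.7-fold.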

How the results depend on the processing

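Of 280 alternative counts of called members, 258 stayed within 1.5 times the main count, and of 1081 alternative fold changes 1026 kept their direction and side of the threshold, 24 became called, 15 were lost and 16 turned sign. With at least 10 counts in every library, which removes genes listed at 0, the members called were 3 instead of 5 higher at 6 h, 3 instead of 5 lower from 6 h to 48 h, 0 instead of 1 lower after 48 h of cold against 13 DAP, 1 instead of 3 higher after cold in *myb107-2*, and 0 instead of 1 higher between the genotypes after cold. That last count was also 0 with DESeq2 and with the legacy method. After 48 h of cold against 13 DAP, 1 instead of 0 was higher with DESeq2, the legacy method, all 18 libraries, the replicate block and without the ribosomal RNA genes. DESeq2 called 1 instead of 0 member lower in the interaction. With 1 library left out, the counts ranged from 2 to 5 higher at 13 DAP, 0 to 1 higher and 1 to 2 lower after 48 h of cold against 13 DAP, 0 to 2 higher from 6 h to 48 h, and 0 to 1 higher in *myb107-2* at 11 DAP.

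The signs that turned were of values near 0 with 1 library left out, whose log2 fold changes ranged as follows. *CBF2* ranged from -0.077 to 0.12 at 6 h and from -0.22 to 0.52 after 48 h of cold against 13 DAP, *CBF3* from -0.059 to 0.68 after 48 h and *CBF1* from -0.087 to 0.79 at 13 DAP. *COR47* ranged from -0.24 to 0.30 between the genotypes at 11 DAP, from -0.058 to 0.24 between them after cold and from -0.25 to 0.30 in the interaction.

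All correlations of same-numbered libraries passed the limit given only for 11 DAP and 13 DAP in WT. There the replicate block left 3 members higher and 1 lower and changed no call. For 48 h of cold against 11 DAP in WT the first correlation missed the limit (0.085, 0.201 and 0.141). With the block, 5 instead of 4 members were higher there (*COR15B* added). For 48 h of cold against 13 DAP the correlations were -0.295, 0.044 and -0.193, and with the block 1 instead of 0 members was higher (*CBF1*). Chosen after seeing the data, *KIN1* and *KIN2* summed as 1 gene kept every call of *KIN1* and was also called from 6 h to 48 h (3.35). Of 120 mean levels under RLE scaling or without the ribosomal RNA genes, 108 moved by at most 1 SD, and 12 rose by more without those genes. Depth limits *COR15A*, *COR15B* and *GOLS3*, whose counts were at most 323 in any library.

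Over all genes, DESeq2 called 213 higher and 404 lower at 6 h (129 and 230 in edgeR), 83 instead of 47 higher in *myb107-2* at 11 DAP, and 238 higher and 140 lower in the interaction (53 and 20). The legacy method called 119 instead of 184 higher in *myb107-2* after cold, and all 18 libraries in the fit called 12 instead of 20 lower in the interaction. Without a minimum fold change, 315 and 416 were called at 6 h, 1315 and 1454 at 48 h, 2102 and 2382 at 13 DAP, 1772 and 1709 after 48 h of cold against 13 DAP, 1035 and 665 from 6 h to 48 h, 2414 and 2367 after cold in *myb107-2*, 102 and 323 between the genotypes at 11 DAP and 314 and 496 after cold. With 1 library left out, 76 to 155 were called higher and 82 to 235 lower at 6 h, 502 to 718 and 530 to 771 at 48 h, 467 to 681 and 239 to 380 from 6 h to 48 h, 22 to 66 and 92 to 228 between the genotypes at 11 DAP, 109 to 249 and 212 to 364 between them after cold, and 23 to 72 and 3 to 36 in the interaction.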
